A study of Bos taurus with 2 samples.

Results

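The enzymes described here make serine, pass its carbon to cysteine, or break down serine and glycine. There are 10 of them among the 26714 genes and unnamed transcripts on the array, and they were found through the RefSeq accession given with each probe. *PHGDH*, *PSAT1* and *PSPH* form the serine synthesis route, *CBS* and *CTH* the transsulfuration route, *SDS* dehydrates serine, and *GLDC*, *AMT*, *GCSH* and *DLD* encode the glycine cleavage system. The set was chosen from earlier results of these same arrays, in which several of its members were higher in the low-nutrition pool, so the values below are a description. The muscle studied was the longissimus thoracis (LT) of Japanese Black cattle fetuses, taken at 8.5 months of gestation, and RNA levels were read from 2 Agilent bovine arrays. The high-nutrition (HN) array held pooled RNA of 4 fetuses whose dams were fed 120% of their nutritional requirement during gestation, and the low-nutrition (LN) array that of 4 fetuses whose dams were fed 60%. All dams were inseminated with male-sorted semen of 1 sire, and the pools were made from the heaviest HN and the lightest LN fetuses. Diet and the choice by body weight therefore cannot be told apart, each group has 1 array with no replicate, and no test or p-value was possible.

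Serine is made from 3-phosphoglycerate, an intermediate of glycolysis, by the so-called phosphorylated pathway. Its carbon feeds one-carbon units, glycine, phospholipids and, through condensation with homocysteine, the cysteine used for glutathione and taurine. The glycine cleavage complex of mitochondria breaks glycine down to carbon dioxide and ammonia and loads folate with a one-carbon unit, and it is best known from liver, kidney and brain. The genes of serine synthesis are known targets of the transcription factor ATF4, which is active when amino acids are scarce.

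All 3 serine synthesis genes were higher in the LN pool by more than 2-fold, and so was *CBS*, while no measured gene of glycine cleavage passed the lower fold threshold of the study, a log2 LN/HN of 0.32 in either direction. Values are log2 LN/HN of quantile-normalized signals, averaged over the probes of a gene, so that a positive value is higher in the LN pool. The largest was that of *PSPH* (1.53, or 2.89-fold), followed by *PHGDH* (1.49, 2.81-fold), *CBS* (1.31, 2.48-fold) and *PSAT1* (1.16, 2.23-fold). *CTH* followed with 0.30, *GCSH* with 0.22, *DLD* with -0.01 and *AMT* with -0.25. *SDS* and *GLDC* were not well above background on either array and have no value. Thus 4 of the 8 measured members were past 2-fold higher, where 0.711% of the 19554 genes with a value were. These 4 were also the members past 0.32 higher, against 8.85% of all genes, and no member was past 0.32 lower, against 9.11%. With cyclic loess (0.34) and with the brightest probe (0.47), *CTH* was past 0.32 higher as well, making 5. With the filter for positive and significant probes *AMT* (-0.47) and *SDS* (-0.40) were past 0.32 lower, and without a filter *AMT* was. With the normexp background correction 1 member, *PHGDH*, was past 2-fold. Because the members were selected on this contrast, nothing is read from these shares. Technical error within the arrays could be judged in 2 ways. The SD per spot was 0.085 on the log2 scale among 42 probes printed several times. Their median log2 signal was 8.3, brighter than *CBS*, *CTH* and the dimmer *PSAT1* probe. The error estimates of the scanner software gave 0.204 to 0.296 for the log2 ratio of a member probe. Both cover the spots of 1 array per group. Neither covers labelling and hybridization, which cannot be told apart from diet here, or the spread between fetuses, which pooled RNA cannot give. The paper reports qRT-PCR of the LN and HN fetuses for pathway genes that were higher on the LN array. Most of those examined were not significantly different, and it states that upregulation varied among LN fetuses. In bulk muscle, more cells of a type and more RNA per cell cannot be told apart, nor can fewer cells and less RNA per cell.

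**Figure D1:**
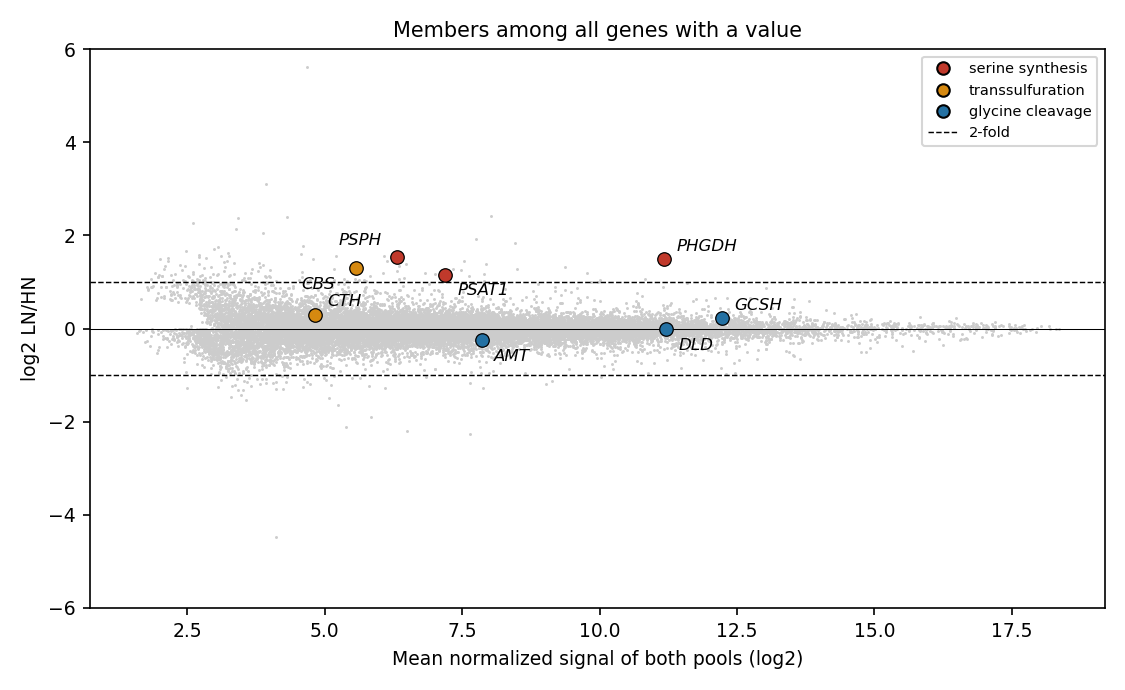
Log2 LN/HN of each gene (vertical axis) against its mean log2 signal in both pools (horizontal axis). Grey points are the 19554 genes with a value, coloured points the 8 measured members, and dashed lines mark 2-fold. *PSPH*, *PHGDH*, *CBS* and *PSAT1* lie above the upper dashed line and the other 4 lie between the lines.

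Among all genes ordered from the highest log2 LN/HN, *PSPH* stood at place 23, *PHGDH* at 27, *CBS* at 49 and *PSAT1* at 78. The gaps between these neighbours were 0.04, 0.18 and 0.15 on the log2 scale, less than the software error of a single probe, so the order within each neighbouring pair is not resolved. The next step, from *PSAT1* to *CTH*, was 0.86. *CTH* stood at place 1941, and *DLD* near the middle of all genes, with 47.8% of them below it.

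*PHGDH* encodes phosphoglycerate dehydrogenase, which oxidizes 3-phosphoglycerate in the first step of the route. Its 1 probe had a signal of 1351 in HN and 3918 in LN before normalization. On the normalized log2 scale these were 10.43 and 11.92. The difference of 1.49 had a software error of 0.20. Of the 2108 probes within 0.5 log2 units of its signal and well above background on both arrays, 95% had a log2 LN/HN between -0.40 and 0.34. *PHGDH* thus differed in a signal range where the pools were otherwise close.

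*PSAT1*, the aminotransferase of the second step, moves an amino group from glutamate to the serine precursor. Its brighter probe had a normalized log2 signal of 9.81 in HN and 11.07 in LN, a log2 LN/HN of 1.26. Its other probe was 6.41 log2 units dimmer in the HN pool, with 3.40 and 4.46, and gave 1.06. Both probes were past 2-fold despite this difference in brightness, and the software error was 0.20 for the brighter and 0.30 for the dimmer one. *PSPH* encodes phosphoserine phosphatase, which releases free serine in the last step. Its brighter probe had 7.03 in HN and 8.74 in LN, a log2 LN/HN of 1.71 and the highest of any member probe. The dimmer probe had 4.06 and 5.41, a log2 LN/HN of 1.35. In both genes the dimmer probe gave the smaller difference. The 5 probes of the route ranged from 1.06 to 1.71, and each lay above the central 95% of all probes of like signal, which at the dim end of this route reached from -0.76 to 0.81.

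**Figure D2:**
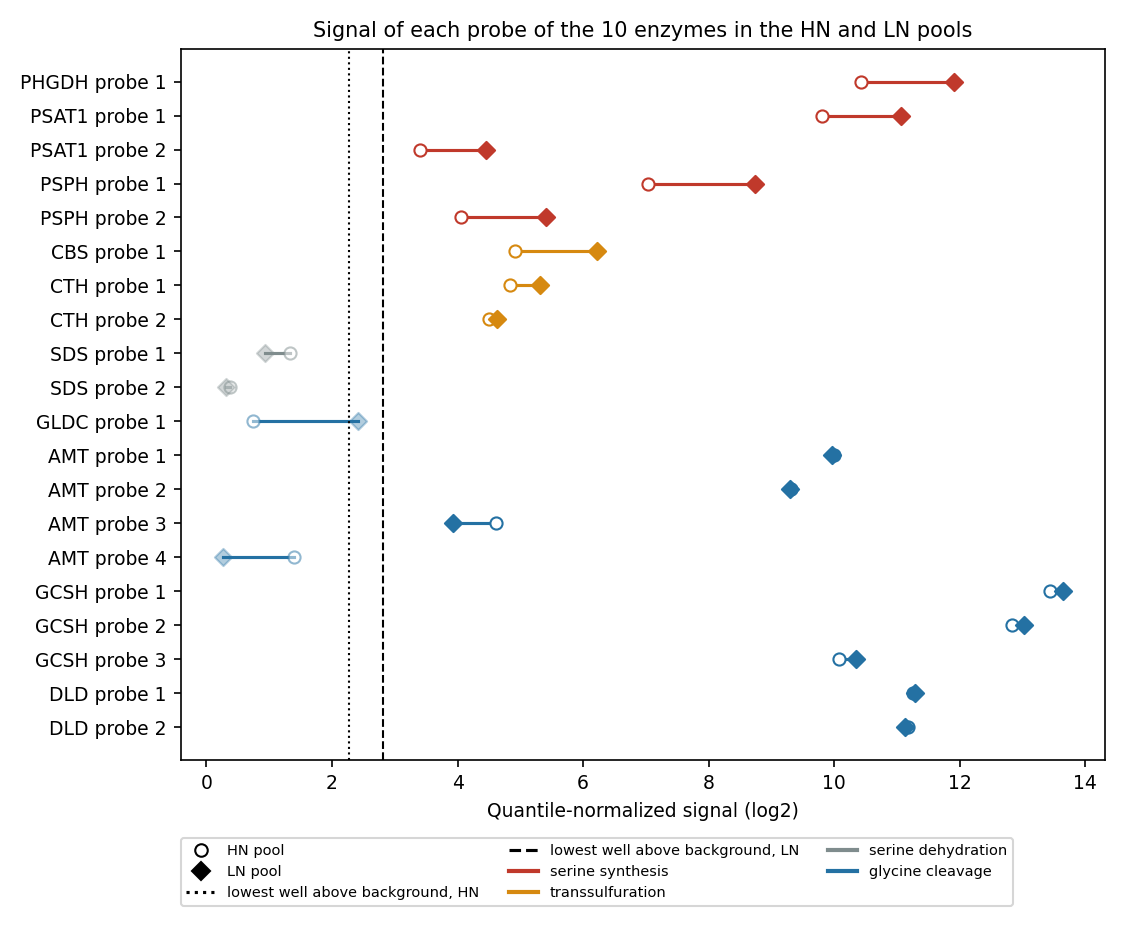
Quantile-normalized log2 signal (horizontal axis) of each probe of the 10 enzymes in the HN pool (circles) and the LN pool (diamonds), with probes of a gene numbered from the brightest and coloured by route. Vertical lines show where signals well above background begin, at 2.27 in HN (dotted) and 2.82 in LN (dashed), and faded symbols are probes not well above background. The diamonds lie to the right of the circles in all 5 serine synthesis probes and in *CBS*, and overlap them in *DLD* and the brighter *AMT* probes.

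The transsulfuration genes differed from each other. *CBS* encodes cystathionine beta-synthase, which joins serine to homocysteine. Its 1 probe had a signal of 30.6 in HN and 74.2 in LN, or 4.91 and 6.22 on the normalized log2 scale. The log2 LN/HN of 1.31 lay above the range of -0.55 to 0.59 that held 95% of 3497 probes of like signal. *CTH* encodes cystathionine gamma-lyase, which splits cystathionine to yield cysteine. Its brighter probe had 4.84 in HN and 5.31 in LN, a log2 LN/HN of 0.47, and its dimmer probe had 4.50 and 4.64, a log2 LN/HN of 0.13. Both values were within the ranges of probes of like signal (-0.58 to 0.63 and -0.64 to 0.68), and the second was below its software error of 0.23. The signals of *CBS* and *CTH* were dim. With the normexp background correction and its offset of 50, which is of the size of these signals, *CBS* had a log2 LN/HN of 0.61 and *CTH* of 0.08.

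On the breakdown side, the glycine cleavage genes were measured with 8 probes, which ranged from -0.69 to 0.28. *GCSH* encodes the H protein, whose lipoyl arm carries the intermediates between the other subunits. Its 3 probes had normalized log2 signals of 13.44, 12.84 and 10.08 in HN and of 13.64, 13.03 and 10.36 in LN. Each was slightly higher in the LN pool, by 0.20, 0.19 and 0.28, which is near the software error of 0.20 per probe and within the ranges of probes of like signal. *DLD* encodes dihydrolipoamide dehydrogenase, the L protein that reoxidizes this arm and also serves the pyruvate, 2-oxoglutarate and branched-chain keto acid dehydrogenases. One of its probes had 11.25 in HN and 11.29 in LN, and the other had 11.19 and 11.12. These differences of 0.04 and -0.06 were below the SD of a single spot.

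*AMT* encodes the T protein, the aminomethyltransferase that hands the one-carbon unit to folate. Its mean of -0.25 came from 1 dim probe. The brightest probe had a signal of 1004 in HN and 1017 in LN before normalization, a log2 LN/HN of -0.03 after it, and the next had normalized log2 signals of 9.32 and 9.29, again -0.03. The third had 4.62 and 3.93, a log2 LN/HN of -0.69, which was inside the range of -0.71 to 0.75 of probes of like signal. The mean of the 2 brighter probes was -0.03. The fourth *AMT* probe was not well above background on either array, and where it was counted, under the looser filters, the mean of the gene was -0.47.

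*GLDC* encodes the P protein, the decarboxylase that starts glycine cleavage and without which the complex does not work. Its 1 probe had a signal of 1.66 in HN and 4.89 in LN, where the negative control spots had medians of 1.24 and 1.51. The normalized log2 signal of 2.41 in the LN pool was below 2.82, the lowest that the software marked as well above background there, and no fold is given. *SDS*, serine dehydratase, turns serine into pyruvate and is best known from liver. Its probes had signals of 2.92 and 1.18 in HN and of 1.76 and 1.38 in LN, close to the negative controls. The *GLDC* probe and the brighter *SDS* probe were still positive and significant against their local background on both arrays, so these genes were dim but not shown to be absent.

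Between the routes, the lowest serine synthesis probe (1.06) and the highest glycine cleavage probe (0.28) were 0.78 apart on the log2 scale among the probes well above background, and these did not overlap. The members were selected on this contrast, so this gap is a description only. With a filter that asked only for positive and significant probes, or without a filter on dim probes, *GLDC* counted with a log2 LN/HN of 1.67, which lies within the range of the synthesis probes. The median log2 LN/HN was 1.49 for the 3 serine synthesis genes, 0.80 for the 2 transsulfuration genes and -0.01 for the 3 measured glycine cleavage genes, and over all genes it was -0.003. The median of synthesis exceeded that of breakdown by 1.5. At the level of probes, 6 of the 16 measured member probes were past 2-fold higher, where 0.444% of the 30639 probes measured on both arrays were. None was past 2-fold lower. The other 4 of the 20 member probes were not well above background on either array.

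**Figure D3:**
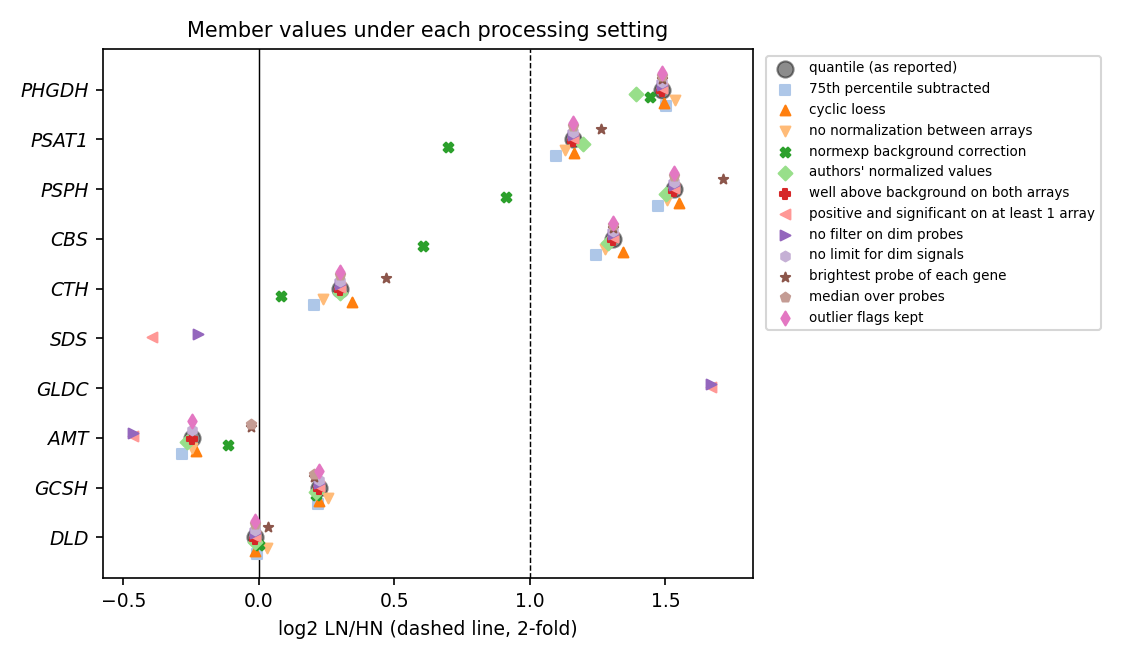
Log2 LN/HN (horizontal axis) of each member under the setting reported here (large grey circles) and under the 12 alternatives (coloured symbols), with the dashed line at 2-fold. *SDS* (-0.395 and -0.225) and *GLDC* (1.67) have points only with the filter for positive and significant probes and without a filter on dim probes. *PHGDH* stays between 1.39 and 1.54, whereas *PSPH*, *PSAT1* and *CBS* drop below 2-fold with the normexp background correction (0.91, 0.70 and 0.61).

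With the normexp background correction, which adds an offset of 50 to every signal and so draws dim signals together, *PHGDH* remained past 2-fold (1.44) and *PSPH*, *PSAT1* and *CBS* did not. In the other 11 alternatives all 4 were past 2-fold. *PSPH*, *PHGDH*, *PSAT1*, *CBS*, *CTH* and *GCSH* were higher and *AMT* was lower in the LN pool in all 12, while *DLD* had the other sign in 2 (up to 0.04).

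Of 63 further genes in 6 lists around these routes, 52 had a value. More of them were higher than lower in the LN pool (33 and 19), 11 were past 0.32 higher and 2 past 0.32 lower, and none reached 2-fold. Over all genes with a value, 9636 were higher and 9906 lower, and 8.85% and 9.11% were past 0.32 in these directions. The median log2 LN/HN of the 52 genes was 0.06. The lists were written from general knowledge with earlier results of these arrays known.

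Serine and glycine are interconverted by the serine hydroxymethyltransferases. The cytosolic *SHMT1* stood at 0.41, the mean of 3 probes (0.24 to 0.56), and at 0.18 with the normexp correction. The mitochondrial *SHMT2* had 0.07, but its probes did not move together. The brighter ones gave 0.35 and 0.33, and a dim one with log2 signals of 4.30 and 3.82 gave -0.48. Other genes that use or break down glycine and threonine were also past 0.32. *GNMT*, which methylates glycine and so disposes of methyl groups, had 0.95, with log2 signals of 8.41 in HN and 9.36 in LN from 1 probe. *GCAT*, the ligase of threonine breakdown to glycine, had 0.59, and its 3 probes were close together (0.57 to 0.62). *SDSL*, a relative of *SDS*, had 0.42, a mean of a measured probe at 0.16 and one that was dim in the HN pool at 0.68 or more, and it was past 0.32 in 5 of the 12 alternatives. Its value ranged from 0.04 with the normexp correction to 1.39, past 2-fold, with the filter for positive and significant probes. *SARDH*, which oxidizes sarcosine back to glycine, was lower with -0.44 from 1 dim probe, or -0.16 with the normexp correction. Of the 12 genes of this list with a value, 4 were past 0.32 higher and 1 lower, and the median was 0.12.

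In the methionine cycle, which supplies homocysteine to *CBS*, *MAT2A* was past 0.32 higher. This synthetase of S-adenosylmethionine had 0.43, with 0.49 and 0.38 in its probes. *MAT2B*, its regulatory subunit, had 0.20, and the median of the 6 measured genes was 0.19. Downstream of *CTH*, *GSS*, the second enzyme of glutathione synthesis, had 0.33 from 1 of its 2 probes, a value that became -0.13 when the filter asked of a probe only to be positive and significant. It was past 0.32 in 7 of the 12 alternatives and had the other sign in 2. *GCLM*, a subunit of the first enzyme, had -0.19, and the 8 measured genes of cysteine use had a median of 0.004. In neither of these lists was a gene past 0.32 lower.

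Of the carriers of serine, glycine and related amino acids, 3 of 8 were past 0.32 higher. *SLC7A10*, a small neutral amino acid exchanger, had 0.90 from 1 probe, with log2 signals of 8.74 and 9.63. *SLC1A4*, which carries serine, had 0.64 over 3 probes (0.31 to 0.94), and *SLC1A5*, a glutamine carrier, had 0.34, which was past 0.32 in 10 of the 12 alternatives and 0.31 with the normexp correction. All 6 measured genes of serine use in lipids were on the lower side (median -0.07), and 5 of 6 without normalization, with the normexp correction and with the brightest probe of each gene. *SERINC2*, named for serine incorporation into membrane lipids, was past 0.32 lower with -0.46, and its 4 probes lay between -0.54 and -0.34. *SPTLC2*, a subunit of the enzyme that starts sphingolipid synthesis from serine, had -0.24.

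*DLD* works in several complexes besides glycine cleavage, and lipoate is attached to all of them. The 12 genes of lipoate attachment and these partner complexes had a median log2 LN/HN of 0.03. Only *DBT* (0.53, with 0.67 and 0.39 in its probes) and *BCKDHB* (0.41, 1 probe), both of the branched-chain complex, were past 0.32. *BCKDHA* of the same complex had -0.12, with both probes lower (-0.10 and -0.15), and the subunits of the pyruvate dehydrogenase lay between -0.03 and 0.10.

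**Figure D4:**
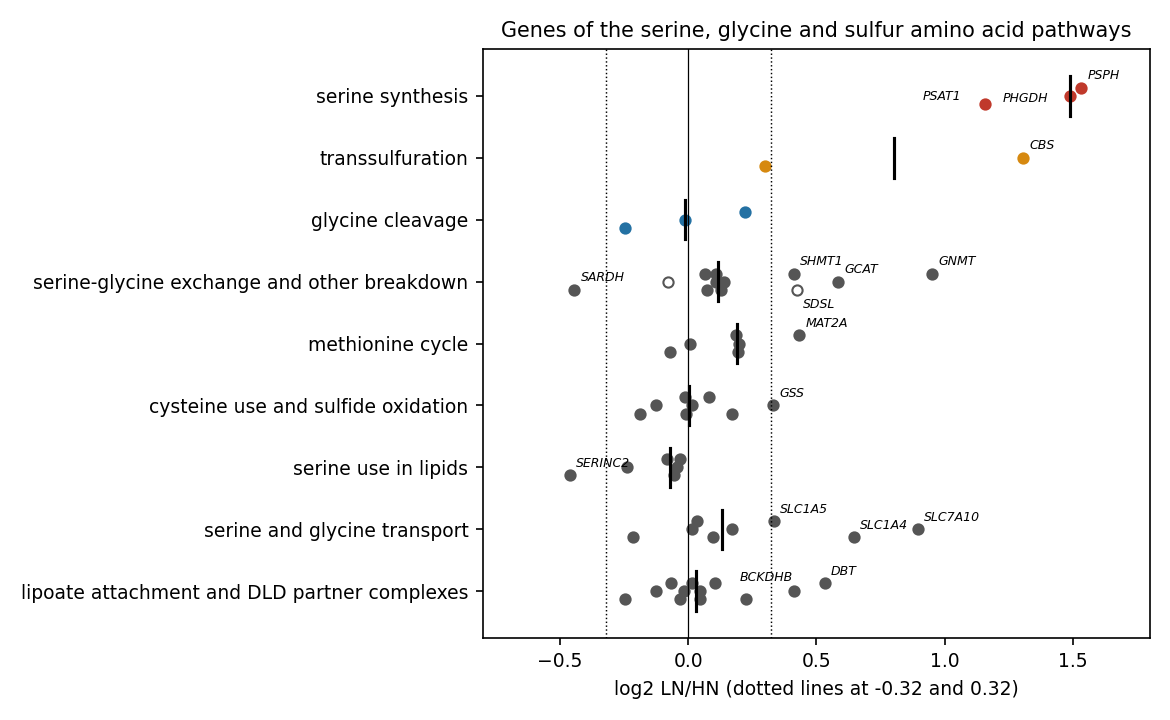
Log2 LN/HN of each gene with a value (points, horizontal axis) in the member routes and in the 6 lists around them, with the median of each list as a vertical bar and dotted lines at -0.32 and 0.32. Open points include a probe that was dim on 1 array, and genes past 0.32 are named. The serine synthesis genes and *CBS* lie to the right of every gene of the 6 lists.

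As a check of the tissue, all 11 measured skeletal muscle markers were bright, with log2 signals from 11.12 to 17.57 and *ACTA1*, skeletal muscle actin, the brightest (-0.04). Between the pools, 9 were lower and 2 higher in LN, with a median of -0.15. The myosin heavy chain *MYH1* (-0.50) and myoglobin *MB* (-0.37) were past 0.32 lower, and the perinatal myosin *MYH8* (0.35) was past 0.32 higher. With the brightest probe *MB* had -0.31 and *MYH8* 0.04. Markers of other cell types moved between the pools as well. All 6 fibroblast markers were higher in the LN pool (median 0.34), led in signal by *COL3A1* (0.33), a collagen, and their summed signal was 20770 in HN and 25400 in LN. Of the 5 measured neutrophil markers 4 were higher (median 0.76) and their sum was 557.9 and 1050, with *S100A12* the brightest (0.61), *S100A8* (2.62-fold) and *S100A9* (2.37-fold) past 2-fold and in the range of the serine synthesis genes (with the normexp correction *S100A9* had a log2 LN/HN of 0.78), and *CXCR2* lower with its LN signal at the background. All 6 macrophage markers were lower (median -0.32, *C1QB* -0.45), with sums of 6183 and 4888. With the normexp correction 5 of these 6 were lower and the median was -0.22. The medians were -0.19 for 5 endothelial (*PECAM1* -0.32), -0.11 for 6 erythroid (*HBA* 0.002), 0.22 for 3 adipocyte (*FABP4* 0.39), 0.003 for 5 Schwann cell and nerve (*S100B* 0.003) and -0.12 for 8 liver markers (*HPX* -0.19). Of the liver list 3 were higher and 5 lower, with *SERPINA1* (0.23), *FGB* (0.19) and *APOA1* (0.04) the higher ones, and *TAT* was not detected. *ALB* had -1.004 over 4 dim probes, 2 of them not well above background in LN, and -0.24 with the normexp correction. *AHSG* had -0.67 over 7 probes, of which the 3 bright ones gave -1.42, -1.49 and -1.56, and -0.31 in the normalized values of the authors. The part of these cell types in the values of the serine genes was not tested.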

How the data were processed

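Total RNA of 4 fetal LT muscles per group was pooled, labelled with Cy3 and hybridized to 1 Agilent Bovine (v2) array per group. The authors extracted the signals with Agilent Feature Extraction 11.0.1.1 (per the labels' processing notes), and deposited background-subtracted intensities, not normalized between arrays, with error estimates and other flags per spot. The authors also deposited log2 values of 30027 probes, which they quantile-normalized in GeneSpring GX. Their scale is not stated and was taken as log2 from the match with the values used here (r 0.9997 for HN and 0.9994 for LN, medians 8.03 on both arrays). They serve as an alternative.

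Log2 intensities of the 43803 non-control spots were quantile-normalized, as the study's methods state, with limma 3.58.1 in R 4.3.3. Later steps used Python 3.11.15, pandas 2.3.3, numpy 2.4.6 and matplotlib 3.10.9. The 13 spots with an outlier flag were removed and spots of a probe averaged. Detection required a probe to stand well above background in HN, in LN or in both (32776 of 43652). If only 1 of the signals did, the dimmer one was replaced by the lowest signal so marked on its array, unless its own was higher, and no fold was given where the bright side did not exceed it. A gene's value is the mean over its detected probes. Thresholds of 2-fold and 1.25-fold are those of the study. The share of spots well above background was 74.5% in HN and 70.9% in LN (median signals 49.1 and 48.4), none was saturated, and the number of arrays limits the precision.

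Accessions of 26742 probes matched a symbol in the RefSeq table for ARS-UCD2.0. Coordinates are left out because the array was designed on an earlier build, and probe sequences were not used. The members and lists were chosen with earlier results of these data known. Named were all 10 members, each gene of the surrounding lists past 1.25-fold (or the pair with the largest difference where fewer were) and the brightest marker of each cell type, while *SHMT2*, *BCKDHA*, *CXCR2*, *S100A8*, *S100A9*, *MYH1*, *MB*, *MYH8*, *ALB*, *AHSG*, *SERPINA1*, *FGB*, *APOA1* and *TAT* were named after their values were seen. The planned normexp correction used the median spot signal, as the mean signal was not among the columns. The steps were run on simulated data with planted changes larger than the value of any member gene, so the recovery of smaller changes was not tested.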

Additional observations from a re-analysis of the deposited data

How the results depend on the processing

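For 12 alternatives, a value was taken as moved when it differed by over 0.167 on the log2 scale, the 95% limit of a replicate spot, and a count when it differed by over 1.5 times. The normexp background correction gave 1 member past 2-fold higher in place of 4, a median log2 LN/HN of 0.91 for serine synthesis, 0.34 for transsulfuration and 0.91 for synthesis minus breakdown, and 7 higher and 1 lower genes past 0.32 in the surrounding lists in place of 11 and 2. Its offset compresses dim signals by construction. Members past 0.32 lower were 2 when probes only had to be positive and significant, and 1 without a filter on dim probes, in place of 0, since dim probes then count (*AMT* in both, *SDS* in the former). Members past 2-fold higher were then 5, *GLDC* included. Lower genes of the surrounding lists were then 5 and 4, and 4 without a limit for dim signals. No member past 0.32 changed sign, and of the surrounding genes past it only *GSS* did (-0.13). Over all genes, the share of higher genes among those past 0.32 was 49.3%, but 30.7% with the 75th percentile subtracted and 39.3% without normalization. The number past 2-fold was 139 higher and 56 lower, against 9 and 4 with normexp, 664 and 655 with positive and significant probes and 595 and 595 without a filter. No paired analysis was possible because each group has 1 array, and no replicate could be left out. The dim signals of *SDS* and *GLDC* limit what can be said of serine dehydration and of the first step of glycine cleavage.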
